A study of Homo sapiens with 6 samples.

Results

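The genes described here were 10 immune checkpoint ligands, the molecules by which a tumor cell restrains T cells, natural killer (NK) cells or phagocytes. They were the rows of the count table named CD274, PDCD1LG2, CD276, VTCN1, CD47, PVR, NECTIN2, LGALS9, NT5E and ENTPD1, 10 of the 58735 genes listed, and 9 of the 10 had enough counts to be tested. RNA had been sequenced from parent MDA-MB-231 cells, a human triple-negative breast cancer (TNBC) line labelled WT, and from their Adriamycin-resistant derivative, labelled ADR resistant and named ADRr here. Each group had 3 libraries. Both groups were grown in DMEM with serum, and no other allele or treatment was labelled. ADRr cells had been selected with stepwise Adriamycin (doxorubicin, an anthracycline that damages DNA) and isolated by limiting dilution, so they represent clonal cells of a single line, and the dose in the medium at harvest was not given in the sources used here. Time points appear in the series record but in no sample label, and libraries with the same group label were taken as replicates. Nothing stated that they came from separate cultures, so p-values measure the spread between these libraries, which may be technical.

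Checkpoint ligands are cell-surface or secreted proteins that engage inhibitory receptors on immune cells. CD274 (PD-L1) and PDCD1LG2 (PD-L2) bind PD-1 on T cells, PVR and NECTIN2 are shared by the activating receptor CD226 and the inhibitory receptor TIGIT on T and NK cells, and CD47 binds SIRPα on phagocytes and inhibits engulfment. ENTPD1 (CD39) and NT5E (CD73) are ectoenzymes that act in sequence, the first degrading extracellular ATP and ADP to AMP and the second making adenosine, which inhibits lymphocytes. Interferon-γ is a well-known inducer of PD-L1 through JAK kinases and the transcription factor IRF1.

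The total count per library ranged from 15983985 to 18272314, and 3 counts corresponded to 0.164 to 0.188 CPM, the count scaled to library depth. Libraries of a group correlated at 0.989 to 0.993 and libraries of different groups at 0.935 to 0.937 (Pearson's r across genes, which are not independent replicates). All 8 markers of MDA-MB-231 cells were detected, with a summed level of 884 to 891 FPKM (fragment counts scaled to gene length and library depth) in parent and 713 to 743 FPKM in ADRr. By log2 fold change, KRT8 (−2.00), KRT7 (−1.50), KRT18 (−0.65), VIM (−0.56) and ITGB1 (−0.48) were lower in ADRr. EGFR (1.39) and CD44 (0.80) were higher, and MSN (0.13) was not called. ESR1 and PGR, the hormone receptor genes that TNBC cells lack, had at most 1 count in any library. The other 5 genes of the 7-gene luminal and epithelial list were detected, with CDH1 (−1.07), KRT19 (−1.33) and ERBB2 (−1.24) lower, EPCAM (1.10) higher and GATA3 (−0.22) not called, and the list's summed level was 76.7 to 93.8 FPKM in parent and 46.4 to 48.7 FPKM in ADRr. Of 16 leukocyte markers, 3 were tested. The pan-leukocyte gene PTPRC had 0 to 2 counts, TYROBP, CD3G, CD2, MS4A1 and KLRD1 were at 0 in every library, LAPTM5 (log2 fold change 0.68) and CD8A (1.67) were called higher in ADRr, and CD14 was not called (−0.16). The summed leukocyte marker level was 19.8 to 21.7 FPKM in parent and 32.7 to 34.3 FPKM in ADRr, and the part of either marker list in the ligand levels was not tested. In such bulk RNA, a change in the number of cells of a type and a change in RNA per cell cannot be told apart.

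In ADRr, PD-L1, PD-L2 and PVR transcripts were higher than in parent, and CD276, LGALS9 and ENTPD1 transcripts were lower. CD47, NECTIN2 and NT5E differed by less than the fold change required for a call, and VTCN1 was hardly detected. A gene was called when edgeR's quasi-likelihood test gave an adjusted p of at most 0.05 and the fold change was at least 1.2 in either direction. The methods can also be read as a threshold of that size on the log2 scale, at which none of the ligands was called. By the fold rule 3 of the 9 tested ligands were higher, 3 were lower and 3 were not called. Over all 15242 tested genes, 58.8% were called, 29.2% higher and 29.6% lower, so the ligands were called about as often as genes in general. The median log2 fold change (ADRr against parent) was −0.24 for the ligands and −0.0061 for all tested genes. In 4 ligands every ADRr library lay above every parent library and in 5 every ADRr library lay below. Over all tested genes these shares were 34.5% and 34.7%, or 69.2% without overlap in either direction.

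**Figure D1:**
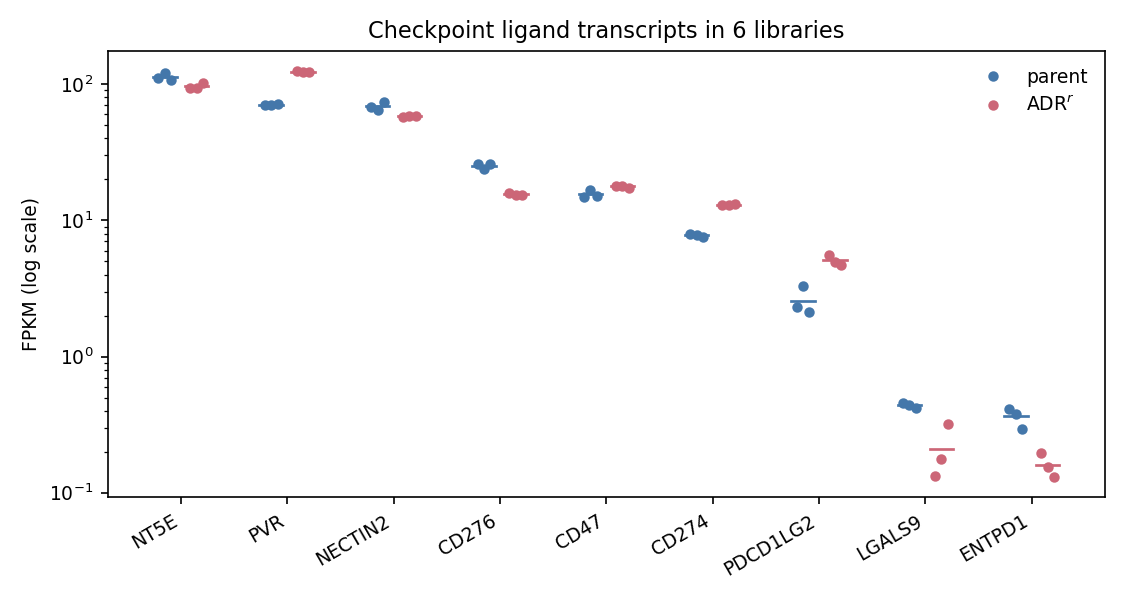
FPKM of each ligand (log axis) in the 3 parent (blue) and 3 ADRr (red) libraries, with short lines for the group means; VTCN1 is left out because it was listed at 0 in parent. The levels span from under 1 FPKM for LGALS9 and ENTPD1 to over 100 FPKM for NT5E and, in ADRr, PVR, and the points of the groups do not overlap within any gene.

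**Figure D2:**
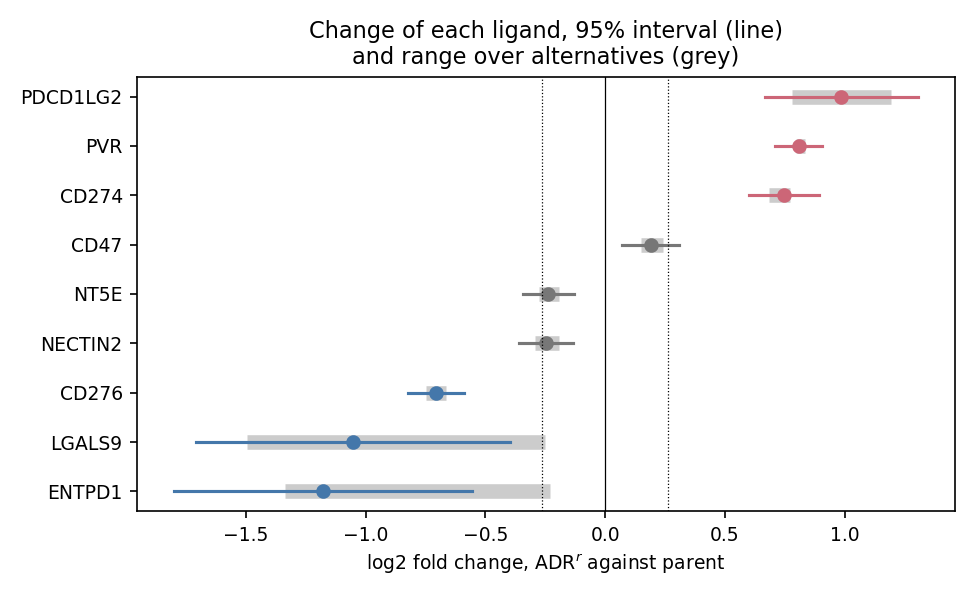
Log2 fold change of each tested ligand (ADRr against parent, points), its 95% confidence interval (colored line, red higher, blue lower, grey not called) and the range of the estimate over the alternative analyses (thick grey bar), with dotted lines at the fold change of 1.2 required for a call. PDCD1LG2, PVR and CD274 lie to the right, CD276, LGALS9 and ENTPD1 to the left, and the grey bars of LGALS9 and ENTPD1 reach −0.25 and −0.23.

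The upstream sequences of the 3 called ligands with the highest levels are shown first, since the transcripts of these genes moved in opposite directions. Each window spans 250 bases before and 50 bases after the start site (RefSeq, GRCh38.p14, plus strand), and capitals mark matches to the motifs searched on both strands. The motifs were the interferon-γ-activated site TTCNNNGAA, the core of the interferon-stimulated response element GAAANNGAA, the AP-1 site TGANTCA, the E-box CACGTG and the κB site. CD274 lies at chr9:5450292-5450591, PVR at chr19:44643660-44643959 and the second of the CD276 windows at chr15:73684520-73684819.
CD274: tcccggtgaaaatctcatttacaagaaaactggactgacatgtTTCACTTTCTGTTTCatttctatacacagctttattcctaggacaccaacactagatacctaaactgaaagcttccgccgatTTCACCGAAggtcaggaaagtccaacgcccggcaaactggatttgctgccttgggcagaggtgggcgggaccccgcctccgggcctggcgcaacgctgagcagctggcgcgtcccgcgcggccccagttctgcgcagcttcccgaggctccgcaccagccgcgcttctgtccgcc
PVR: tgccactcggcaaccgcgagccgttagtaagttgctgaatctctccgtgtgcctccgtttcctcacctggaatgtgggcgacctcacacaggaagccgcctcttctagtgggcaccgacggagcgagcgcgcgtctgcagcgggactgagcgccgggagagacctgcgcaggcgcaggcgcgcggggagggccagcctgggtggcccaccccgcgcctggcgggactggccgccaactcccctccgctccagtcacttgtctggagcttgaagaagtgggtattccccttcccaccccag
CD276: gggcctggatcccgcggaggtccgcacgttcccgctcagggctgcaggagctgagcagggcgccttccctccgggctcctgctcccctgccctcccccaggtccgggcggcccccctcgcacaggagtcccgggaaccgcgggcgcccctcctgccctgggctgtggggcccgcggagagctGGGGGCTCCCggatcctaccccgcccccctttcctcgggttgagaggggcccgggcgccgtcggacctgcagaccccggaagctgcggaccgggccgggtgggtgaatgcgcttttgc
The CD274 window held 1 interferon-γ-activated site, at position −125 from the start site, and 2 overlapping matches to the response element core on the minus strand, at positions −207 and −201. Of 35116 promoters of the same length, 7.66% held the first motif and 8.11% the second. The PVR window, like the NECTIN2, CD47, NT5E and ENTPD1 windows and the other CD276 window, held no match to any of the 5 motifs, which says only that these letters were not in these windows. The LGALS9 window, of a ligand that was lower in ADRr, also held a response element core match on the minus strand, at position −8, and the VTCN1 window held an AP-1 match at position 2. In the CD276 window the single match was a κB site at position −68, a motif held by 11.3% of promoters. AP-1 matches were in 7.71% and E-box matches in 7.26% of promoters. The CD274 window had 22 CpG dinucleotides, PVR 27 and the CD276 window shown 28, against a median of 14 over all promoters. A match is a description of the sequence and not a bound site.

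CD274 encodes PD-L1, the principal PD-1 ligand of tumor cells (ENSG00000120217, chromosome 9, 5450503 to 5470566, plus strand, GRCh38). Its normalized count, the read count scaled to a common library size, was 564, 563 and 547 in parent libraries 1 to 3 and 930, 936 and 942 in ADRr libraries 1 to 3. All ADRr libraries were above all parent libraries, and the spread within either group was small beside the gap. The mean rose from 558 ± 9.17 to 936 ± 6.31 (SD, n = 3), a log2 fold change of 0.75 ± 0.070 (SE), or 1.68-fold, with an adjusted p of 3.2e-09 in edgeR's quasi-likelihood test. On the per-length scale this was a rise from 7.76 ± 0.147 to 13.1 ± 0.110 FPKM, a moderate level that exceeded 63.0% of the tested genes in parent and 75.8% in ADRr.

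PDCD1LG2 encodes PD-L2, the other PD-1 ligand, best known from dendritic cells and macrophages (ENSG00000197646, chromosome 9, 5510570 to 5571254, plus strand). Normalized counts were 94.7, 136 and 87.7 in parent and 230.3, 204 and 194 in ADRr. The parent libraries varied more than for CD274, with the second library highest, but the groups did not overlap. Mean normalized counts rose from 106 ± 26.3 to 209.5 ± 18.6, a log2 fold change of 0.99 ± 0.15 or 1.98-fold, with an adjusted p of 6.4e-06 (edgeR). PDCD1LG2 was the lower of the PD-1 ligands in every library, at 2.57 ± 0.635 FPKM in parent and 5.08 ± 0.450 FPKM in ADRr. The ratio of CD274 to PDCD1LG2 was 3.13 ± 0.661 in parent and 2.59 ± 0.239 in ADRr, and the groups overlapped (exact permutation test, two-sided, p = 0.3). Summed over both genes, PD-1 ligand transcripts were 10.2, 11.1 and 9.71 FPKM in parent and 18.57, 17.96 and 17.91 FPKM in ADRr, 1.76 times as much. No overlap occurred, and the exact permutation p was 0.1, the smallest that 3 against 3 libraries allow.

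CD274 and PDCD1LG2 are neighbours, with 40.0 kb between them, so the tested genes around them were compared. Of the 10 nearest tested neighbours of CD274, 5 on each side, 4 were higher, 2 were lower and 4 were not called, with a median log2 fold change of 0.30. The higher genes were PDCD1LG2, CDC37L1 (a cochaperone, 0.67), RCL1 (a factor of ribosomal RNA processing, 0.43) and KIAA2026 (0.59). The lower genes were ERMP1 (an endoplasmic reticulum metallopeptidase, −0.60) and RANBP6 (an importin family member, −0.99). JAK2, the kinase of interferon-γ signaling that lies on the same side as RCL1, had a log2 fold change of 0.38 with an adjusted p of 0.061 (edgeR) and was not called, although it passed with library size alone (0.41), without parent library 3 (0.47) or without ADRr library 1 (0.51). PLGRKT (a plasminogen receptor, 0.22), RIC1 (−0.13) and AK3 (adenylate kinase of mitochondria, −0.07) were not called. For PDCD1LG2, 3 of its 10 nearest tested neighbours were higher, 2 lower and 5 not called, and UHRF2, which is among them, had −0.15. Over all tested genes, 29.2% were higher and 29.6% lower. PDCD1LG2 and CD274 had the highest signed estimates of this stretch, but CDC37L1 lay within its error of CD274, and the estimate of RANBP6 was as large in size with the opposite sign.

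**Figure D3:**
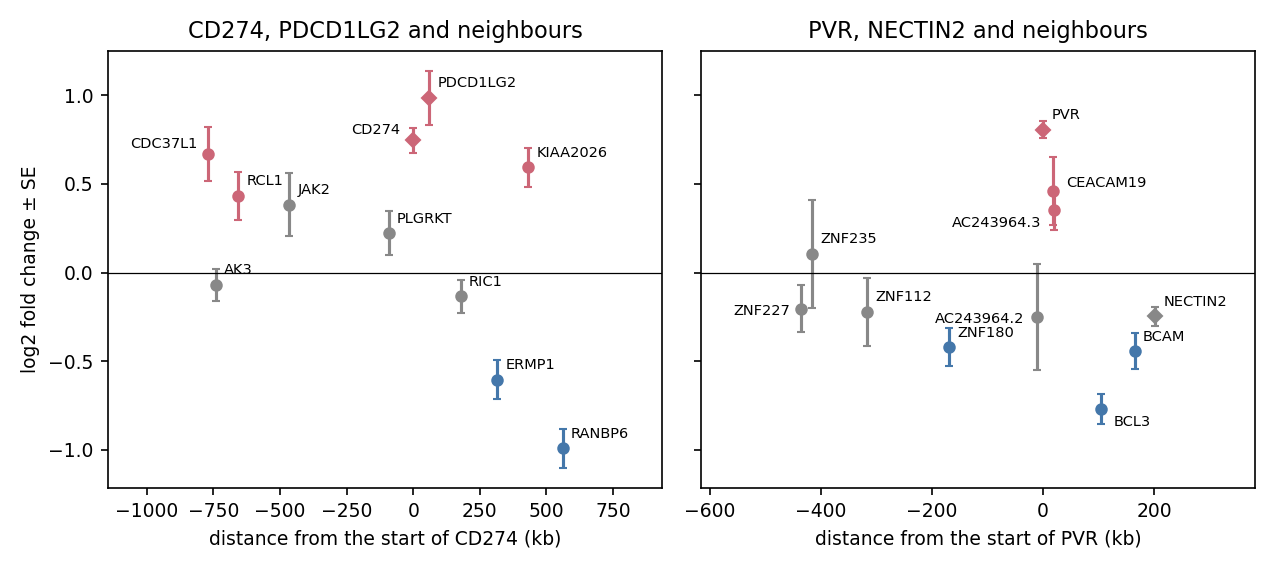
Log2 fold change (ADRr against parent, bars show SE) of CD274 and PVR and of the 10 nearest tested genes of each, against the distance of gene starts in kb; diamonds are ligands, and red, blue and grey mark higher, lower and not called genes. CD274 (0.75) and PDCD1LG2 (0.99) are the highest points on the left, and PVR (0.81) stands above neighbours that range from −0.77 to 0.46 on the right.

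PVR (CD155, the poliovirus receptor) had the smallest adjusted p of the ligands (ENSG00000073008, chromosome 19, 44643798 to 44663583, plus strand). Normalized counts were 4299, 4315 and 4409 in parent and 7655, 7603 and 7532 in ADRr. The libraries of each group lay close together and far from the other group. The mean rose from 4341 ± 59.4 to 7597 ± 61.6, a log2 fold change of 0.81 ± 0.047 or 1.75-fold, with an adjusted p of 6.7e-13 (edgeR). At 124 ± 0.888 FPKM in ADRr against 70.5 ± 0.798 FPKM in parent, PVR was above 98.4% of the tested genes in ADRr. PVR shares 121 exonic bases, 3.44% of its length, with CEACAM19 on the same strand, a gene with 50 to 91 counts per library. Of the 10 nearest tested neighbours of PVR, 2 were higher, 3 were lower and 5 were not called, against 29.2% higher and 29.6% lower over all tested genes.

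NECTIN2 (CD112) is an adhesion molecule of cell junctions that lies 183 kb from PVR (ENSG00000130202, chromosome 19, 44846175 to 44889228, plus strand). Its normalized counts were 4425, 4247 and 4844 in parent and 3777, 3846 and 3771 in ADRr. Each ADRr library was below each parent library, but the parent libraries were spread widely. The log2 fold change was −0.25 ± 0.054 (95% confidence interval −0.36 to −0.14, adjusted p of 3.3e-04 by edgeR), which is smaller in size than the change required for a call (0.26). Without parent library 1 (−0.26) or parent library 2 (−0.29), NECTIN2 was called lower.

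The ligands of CD226 and TIGIT therefore stood at different proportions in the groups. In parent the transcript levels of PVR (70.0 to 71.4 FPKM) and NECTIN2 (64.7 to 73.7 FPKM) overlapped, and their ratio was 1.03, 1.08 and 0.969 in libraries 1 to 3. In ADRr the ratio of PVR to NECTIN2 was 2.16, 2.10 and 2.13. The groups did not overlap (exact permutation p = 0.1, the smallest possible). The sum of both ligands was 139 ± 5.32 FPKM in parent and 182 ± 0.870 FPKM in ADRr, a ratio of 1.31 with the same exact permutation p.

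CD276 (B7-H3) is a B7 family ligand that is abundant in many carcinomas and whose receptor on T cells is unsettled (ENSG00000103855, chromosome 15, 73683966 to 73714518, plus strand). Normalized counts were 2507, 2320 and 2508 in parent and 1521, 1496 and 1484 in ADRr. All ADRr libraries were lower, with a gap several times the spread of the parent libraries. The mean fell from 2445 ± 108 to 1500.1 ± 18.8, a log2 fold change of −0.71 ± 0.056 (adjusted p of 2.1e-10, edgeR), and the level fell from 25.2 ± 1.13 to 15.5 ± 0.190 FPKM. CD276 exceeded CD274 by 3.25 ± 0.174 times in parent and by 1.19 ± 0.0227 times in ADRr, so these B7 family transcripts were at similar levels in ADRr cells (exact permutation p = 0.1, the smallest possible). Of the 10 nearest tested neighbours of CD276, 5 were lower, 2 were higher and 3 were not called, with a median log2 fold change of −0.44. Over all tested genes, 29.6% were lower and 29.2% higher. NEO1 (−2.51), ADPGK (−1.23), NPTN (−1.02) and LOXL1 (−0.94) fell more than CD276, and PML (−0.44) fell less. STOML1 (0.42) and LOXL1-AS1 (0.27) were the higher neighbours. Whether CD276 moved with its neighbours was not tested.

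VTCN1 (B7-H4), a further B7 family inhibitor of T cells, had 0 counts in each parent library and 2, 1 and 2 counts in ADRr libraries 1 to 3 (ENSG00000134258, chromosome 1, 117143587 to 117210960, minus strand). These counts were within the limit of 3 counts that a count of 0 allows, so no difference was detectable at this depth and no fold is given.

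CD47, the ligand of SIRPα, differed little between the groups (ENSG00000196776, chromosome 3, 108043094 to 108091862, minus strand). Its normalized counts were 2119, 2408 and 2178 in parent and 2570, 2590 and 2488 in ADRr. The second parent library came close to the ADRr libraries without reaching them. The means were 2235 ± 153 and 2549 ± 54.2, the log2 fold change was 0.19 ± 0.057 (95% confidence interval 0.071 to 0.31, adjusted p of 0.0058 by edgeR), and CD47 was not called because the fold change was below 1.2. Transcript levels were 15.5 ± 1.04 FPKM in parent and 17.8 ± 0.333 FPKM in ADRr.

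LGALS9 encodes galectin-9, a secreted lectin that binds the T cell receptor TIM-3 among others (ENSG00000168961, chromosome 17, 27629798 to 27649560, plus strand). Raw counts were 44, 41 and 43 in parent and 14, 17 and 34 in ADRr. Every ADRr library was lower, and the third was nearer to parent than the other two. The mean normalized count fell from 43.8 ± 1.76 to 21.0 ± 9.61, a log2 fold change of −1.05 ± 0.32 (95% confidence interval −1.71 to −0.40, adjusted p of 0.0057 by edgeR). The value was −1.49 without ADRr library 3 and −0.80 without ADRr library 1. LGALS9 has near-identical copies, LGALS9B with 0 to 10 counts and LGALS9C with 0 to 3 counts, between which reads could have been split, so its values are uncertain. At 0.439 ± 0.0187 FPKM in parent and 0.210 ± 0.0970 FPKM in ADRr it was a minor transcript in both groups.

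NT5E, the adenosine-producing ectoenzyme CD73, was the most abundant ligand transcript in parent (ENSG00000135318, chromosome 6, 85449584 to 85495791, plus strand). Normalized counts were 8785, 9545 and 8537 in parent and 7425, 7376 and 7989 in ADRr. The ADRr libraries were all lower, but parent library 2 and ADRr library 3 each stood above the rest of their group. The log2 fold change was −0.24 ± 0.052 (95% confidence interval −0.34 to −0.13, adjusted p of 3.4e-04 by edgeR) and NT5E was not called. It was called lower without parent library 3 (−0.27) or without ADRr library 3 (−0.28). Its level, 113 ± 6.64 FPKM in parent and 96.1 ± 4.55 FPKM in ADRr, exceeded that of 97.8% or more of the tested genes in either group.

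ENTPD1 (CD39), the enzyme upstream of NT5E, was by contrast a low transcript (ENSG00000138185, chromosome 10, 95711779 to 95869695, plus strand). Raw counts were 49, 43 and 37 in parent and 25, 18 and 17 in ADRr. Every ADRr library was lower than every parent library. The mean normalized count fell from 44.3 ± 7.44 to 19.5 ± 3.998, a log2 fold change of −1.18 ± 0.30 (95% confidence interval −1.80 to −0.56, adjusted p of 0.0015 by edgeR). The antisense gene ENTPD1-AS1 covers 454 of its exonic bases (6.51%), had 101 to 127 counts per library and was not called (−0.05). The strand setting of the counting was not given in the sources used here, so reads of ENTPD1 and of its antisense partner cannot be told apart in that stretch. NT5E exceeded ENTPD1 per length by 316 ± 48.2 times in parent and by 619 ± 148 times in ADRr (exact permutation p = 0.1, the smallest possible).

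Ordered by FPKM, the parent levels ran NT5E, PVR and NECTIN2, CD276, CD47, CD274, PDCD1LG2, LGALS9, ENTPD1 and VTCN1. Only PVR and NECTIN2 overlapped there between neighbours in the order. In ADRr the order was PVR, NT5E, NECTIN2, CD47, CD276, CD274, PDCD1LG2, LGALS9, ENTPD1 and VTCN1, and only LGALS9 and ENTPD1 overlapped. PVR thus stood above NT5E, and CD47 above CD276, in every ADRr library, whereas both pairs had the opposite order in every parent library. The length behind FPKM is that of all annotated exons, 8225 bases for CD47 and 5542 for CD276. Orders and ratios between genes depend on these lengths, and the transcript forms in use were not examined. Summed over all 10 genes the level was 304 ± 3.48 FPKM in parent and 329.9 ± 3.30 FPKM in ADRr, 1.08 times as much, without overlap (exact permutation p = 0.1, the smallest possible). The share of PVR in this sum was 23.2% in parent and 37.5% in ADRr, that of NT5E 37.1% and 29.1%, and that of NECTIN2 22.6% and 17.6%. CD276 made up 8.30% and 4.71%, CD47 5.11% and 5.39%, CD274 2.55% and 3.96%, and PDCD1LG2 0.843% and 1.54%.

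**Figure D4:**
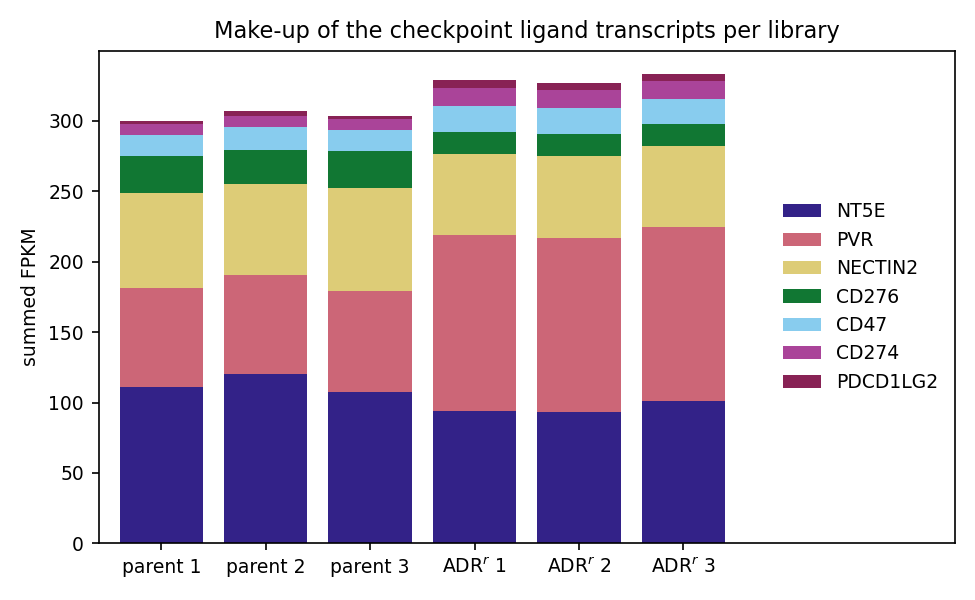
Summed FPKM of the 7 ligands above 1 FPKM in each of the 6 libraries, stacked by gene; LGALS9, ENTPD1 and VTCN1 are too low to be drawn. The PVR segment is larger in the 3 ADRr libraries (37.5% of the sum against 23.2% in parent), while the total differs by a factor of 1.08.

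Genes that act on the ligands, or beside them, were examined as lists. Over all 15242 tested genes, 58.8% were called, 29.2% higher and 29.6% lower, and no list was tested against these shares. The list on the control of PD-L1 held 34 genes, all tested, of which 12 were higher, 8 lower and 14 not called (median log2 fold change 0.15). EGFR, a receptor whose signaling raises PD-L1, rose from 8510 ± 212 to 22376 ± 226 normalized counts (log2 fold change 1.39, adjusted p of 1.6e-17, edgeR). B3GNT3, a glycosyltransferase that acts on PD-L1, rose by 1.74 on the log2 scale from a low level (24.5 to 82.0 normalized counts). The sheddases that cleave PD-L1 moved in opposite directions, ADAM17 rising by 1.04 and ADAM10 having a log2 fold change of −1.70. CMTM6, which protects PD-L1 from lysosomal degradation, fell from 2828 ± 239 to 1322 ± 50.1 normalized counts (−1.10, adjusted p of 7.7e-13, edgeR). Of the interferon-γ axis, IRF1 rose by 0.55 (1067 ± 64.4 to 1562 ± 58.3, adjusted p of 8.8e-08, edgeR). IFNGR2 (0.69) and JAK1 (0.32) were also called higher. IRF2 (−0.38) was called lower, and IFNGR1 (−0.0078) and SOCS1 (−0.36) were not called. Other called genes of this list included MYC (0.95), PTPN2 (0.40) and RELA (0.38), which were higher, and STT3B (−0.97) and ZDHHC3 (−0.97), which were lower.

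Of 28 other costimulatory and coinhibitory ligands and enzymes, 17 were tested, with 8 higher, 5 lower and 4 not called (median 0.35). CEACAM1, an adhesion molecule that inhibits T and NK cells, had 9, 7 and 18 counts in parent and 189, 154 and 192 counts in ADRr, a log2 fold change of 3.89. TNFSF18, the ligand of GITR, had 20, 25 and 22 counts in parent and 293, 209 and 248 in ADRr (3.40). IDO1, the tryptophan-degrading enzyme, rose by 1.73 from 18.9 ± 8.39 to 62.6 ± 26.1 normalized counts. The estimates of all 3 genes were above those of the 9 tested checkpoint ligands, but their levels in parent were low, and CEACAM1 belongs to a family of similar sequences. The 5 lower genes were BTN3A3 (−0.94), BTN2A1 (−0.92), VSIR (−0.85), BTN3A1 (−0.74) and BTN3A2 (−0.58), named after their values were seen. VSIR fell from 931 ± 109 to 517 ± 23.1 normalized counts (adjusted p of 7.7e-09, edgeR).

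The nectin family and the ligands of NK cell receptors are the group closest to PVR and NECTIN2. Of 18 genes, 14 were tested, and 3 were higher, 6 lower and 5 not called (median −0.22). CLEC2B, the ligand of the activating receptor NKp80, had 1, 7 and 5 counts in parent and 97, 70 and 90 in ADRr (log2 fold change 4.19). RAET1L, a ligand of the activating receptor NKG2D, rose by 1.73 from 17.0 ± 5.99 to 56.1 ± 5.25 normalized counts, with close paralogs in its cluster that could share reads. HLA-E, the ligand of the inhibitory receptor NKG2A, was the most abundant of the higher genes and rose from 5445 ± 218 to 7517 ± 289 normalized counts (0.47, adjusted p of 2.5e-08, edgeR). The lower genes were the NKG2D ligands MICA (−0.29), MICB (−0.40), ULBP2 (−0.70) and ULBP3 (−0.91) and the NKp30 ligands NCR3LG1 (−0.74) and BAG6 (−0.30). HLA-E and these lower genes were named after their values were seen. NECTIN1 (0.05) and NECTIN3 (−0.14), adhesion partners in the family of PVR and NECTIN2, were not called.

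Phagocytosis signals, the list that goes with CD47, held 13 genes of which 12 were tested, and 1 was higher, 7 were lower and 4 were not called (median −0.40). THBS1, a secreted ligand of CD47, fell from 76714 ± 2293 to 23568 ± 379 normalized counts (−1.70, adjusted p of 2.1e-19, edgeR). LRP1, a receptor for calreticulin, had a log2 fold change of −1.10. QPCTL, the enzyme that modifies the SIRPα binding site of CD47, fell from 517 ± 25.5 to 360 ± 20.7 normalized counts (−0.52, adjusted p of 1.7e-05, edgeR). ABCA1, a lipid exporter, was the higher gene (1.26).

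Of 15 galectins and galectin-binding genes other than LGALS9, 5 were tested, with 4 higher and 1 not called by edgeR, and all 5 log2 fold changes were above 0 (median 0.59). LGALS3, a galectin that binds T cell glycoproteins, rose from 1442 ± 83.7 to 2895 ± 77.1 normalized counts (1.00), and the galectin-related gene LGALSL rose by 1.37. LGALS1 was 8599 ± 863 and 9586 ± 533 normalized counts (0.16) and was not called. LGALS9 thus had a change of the opposite sign from these 4 genes at a far lower level.

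The list on ATP and adenosine handling, which goes with ENTPD1 and NT5E, held 36 genes with 24 tested, of which 6 were higher, 7 lower and 11 not called (median 0.11). ADORA2B, an adenosine receptor of low affinity, rose from 988 ± 16.7 to 3333 ± 176 normalized counts (1.75, adjusted p of 4.4e-17, edgeR). P2RX4, an ATP-gated channel, rose by 1.21. SLC29A4, a transporter of monoamines and adenosine, had a log2 fold change of −1.25 and ALPP, an alkaline phosphatase with near-identical copies, one of −1.21.

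Receptors of the ligands and related receptors, which immune cells carry, were nearly undetected. The list also takes in CD28, CTLA4, ICOS and SIRPB1, which are not receptors of these ligands. Of its 12 genes, 4 were at 0 in every library, ICOS among them, and 1 was tested. That gene was SIRPA, the receptor of CD47, which had 133 ± 22.0 normalized counts in parent and 46.2 ± 7.73 in ADRr (log2 fold change −1.52, adjusted p of 3.3e-07, edgeR). The PD-1 gene PDCD1 had at most 1 count in any library, and CD226 had 4 to 10 counts. With DESeq2 or without the filter on low counts, 2 receptors were called lower instead of 1.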

How the data were processed

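The members and gene lists were chosen with earlier results of these data known. Per the labels and the paper's methods, the authors selected polyadenylated RNA, mapped reads with HISAT2 2.0.5 on GRCh38 and counted them with featureCounts 1.5.0-p3. The library kit and RNA amount differ between the labels and the methods. The authors deposited unnormalized whole-number gene counts and the FPKM values derived from these. Coordinates are those of the count table (GRCh38); start and end equalled GENCODE 29 in 58724 of 58735 genes.

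The analysis ran in R 4.3.3, and edgeR 4.0.16 served for the counts. Genes kept by filterByExpr (15242) were normalized by TMM (factors 0.987 to 1.01) and compared by the quasi-likelihood test with Benjamini-Hochberg adjustment over all of them. Replicate numbers were no block, since same-numbered libraries did not deviate together. Normalized counts are counts divided by effective library size times its mean. FPKM was used to compare levels between genes. Sums and ratios were compared by two-sided exact permutation tests. The floor of 3 counts covers counting error only.

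Named genes were every member, in each list up to 3 called increases and 2 decreases with a log2 fold change of 1 or more in size and a mean of 50 or more normalized counts in the group with the higher level, plus JAK2, CMTM6, IRF1, QPCTL and the nearest tested neighbours (5 on each side) of CD274 and PDCD1LG2. A gene that the rule also names is not reported here. HLA-E, MICA, MICB, ULBP2, ULBP3, NCR3LG1, BAG6, NECTIN1, NECTIN3, LGALS1 and the marker genes are outside the rule. So are IFNGR1, IFNGR2, JAK1, IRF2, SOCS1, MYC, PTPN2, RELA, STT3B, ZDHHC3, VSIR, BTN2A1, BTN3A1, BTN3A2 and BTN3A3. The neighbours of CD276 and the receptor genes other than SIRPA are outside the rule too. Galectins, leukocyte and cell line markers were hand-written lists, like the others. On simulated data for this comparison (14970 genes, 200 changed), 84.7% of genes changed 2-fold and 67.3% of those changed 1.5-fold were called, with 5.70% false calls. Far fewer genes were changed there than the 58.8% called in the data. The adjusted p depends on that share, so these rates describe the simulated setting alone.

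Alternatives were DESeq2 size factors or library size alone, DESeq2 1.42.0, omission of the filter, a minimum of 10 counts per library, limma 3.58.1 on log2(FPKM + 1) or log2(FPKM + 0.1) for genes with mean FPKM from 0.5 up, the pseudocount of 1 without that filter, a replicate block, each library left out, adjusted p alone and a threshold of 1.2 on the log2 scale. RefSeq promoter windows were found for 9 of the 10 members.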

Additional observations from a re-analysis of the deposited data

How the results depend on the processing

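The direction of all 9 tested ligands held under every alternative that gave a value. At a threshold of 1.2 on the log2 scale, no ligand was called (0 higher and 0 lower), which takes in CD274 (0.75), PDCD1LG2 (0.99), CD276 (−0.71), PVR (0.81), LGALS9 (−1.05) and ENTPD1 (−1.18), and all genes fell to 1114 higher and 972 lower and the other lists to 13 and 6. With the adjusted p alone, CD47 (0.19), NECTIN2 (−0.25) and NT5E (−0.24) also passed, which gave 5 lower ligands. In each of the 3 limma fits on FPKM, 1 ligand was lower, CD276. LGALS9 and ENTPD1 had a mean FPKM under 0.5 and were not tested in the filtered fits, and without the filter their values were −0.25 and −0.23 on the log2(FPKM + 1) scale, which understates changes of low genes. In the limma fit without a filter, SLC29A4 (−0.46) and RCL1 (0.30) missed the adjusted p. Leaving out each library gave 0.73 to 0.76 for CD274, 0.86 to 1.19 for PDCD1LG2, −0.75 to −0.69 for CD276, 0.15 to 0.24 for CD47, 0.80 to 0.82 for PVR, −0.29 to −0.19 for NECTIN2, −1.49 to −0.80 for LGALS9, −0.28 to −0.19 for NT5E and −1.34 to −1.05 for ENTPD1. It gave 3 to 4 lower ligands, 4297 to 4483 higher and 4375 to 4610 lower genes, and ratios of 1.71 to 1.83 for the summed PD-1 ligands and 1.29 to 1.33 for the summed CD226 and TIGIT ligands. AK3, which was not called, ranged from −0.15 to 0.0075 and had the opposite sign at the upper end, without ADRr library 1.

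Same-numbered libraries correlated at 0.0074, −0.021 and −0.046 in their deviations from the group means, against −0.046 to 0.055 over any parent and ADRr pair. They thus showed no strong shared deviation, but such values cannot settle whether they shared a culture or batch. With the replicate number as a block, 4406 genes were higher and 4464 lower, with 3 ligands higher, 3 lower, and 34 genes of the other lists higher and 34 lower. Depth limits VTCN1, LGALS9 and ENTPD1, and the other ligands had 90 or more counts in every library.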
